A study of Mus musculus with 12 samples.

Results

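The tumors of 3 mice given MLN0128, an inhibitor of the mTOR kinase, were set directly against the tumors of 3 mice given everolimus, a rapamycin analog (rapalog), which is 6 of the 12 libraries of the series. The 6 libraries were taken by their labels and not by any measured value, and 13884 autosomal genes with at least 0.5 FPKM (reads per kilobase of exon, scaled for library size) in at least 3 of the 12 libraries were compared. All treated mice carried floxed Rictor and floxed Tsc2 alleles (Rictor fl/fl Tsc2 fl/fl, bred on a C57BL/6J background) and were hydrodynamically injected with plasmids for c-MYC, MCL1, Cre and the sleeping beauty transposase, so hepatocytes that took up the DNA formed c-MYC/MCL1/RictorKO Tsc2KO hepatocellular carcinoma (HCC). The transgenes were driven by the EF1α promoter and Cre by the CMV promoter, and cells of the liver that took up no plasmid kept both genes. By the labels, MLN0128 and everolimus were each given by gavage at 1 mg/kg/day on 6 days a week for 3 weeks, starting 6 days after injection, and the mice were sacrificed 3.7 weeks after injection. A treatment of 3 days is also given in the sources used here for the tumors that were sequenced, so the length of treatment behind every drug difference below is uncertain. The 3 vehicle-treated tumors of the same genotype and the 3 normal livers of wild-type C57BL/6 mice served as reference groups. Mice of both sexes were used in the study, and ages were not given in the sources used here. Rictor is a subunit that mTORC2 requires, and its deletion by Cre was part of the model in the vehicle and both drug groups alike. The comparison addressed what a block of the kinase changes beyond a rapalog. In cells that kept Rictor, MLN0128 can also block mTORC2, so the differences need not be limited to mTORC1 output.

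mTORC1 couples amino acids, energy and growth factors to protein synthesis through the p70S6K/RPS6 branch and the 4EBP1/eIF4E branch. Rapalogs bind FKBP12 and block mTORC1 allosterically, which shuts off p70S6K well and 4EBP1 phosphorylation only in part, whereas inhibitors of the kinase block both. mTORC1 also raises the transcription factor ATF4, which drives amino acid synthesis, uptake and tRNA charging, as well as the SREBP factors of sterol and fatty acid synthesis and HIF1 of glycolysis.

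The sequences shown are promoters of 2 groups of genes that lay lower with MLN0128, ATF4 targets and chaperones of the endoplasmic reticulum (ER), because each group is known for a short element that its regulators bind. Every stretch is the 250 bases upstream of the start site in RefSeq (GRCm38.p6), 5′ to 3′ on the strand of the gene. Capitals in the Chac1 (chr2:119350992-119351241, plus strand) and Atf3 (chr1:191183334-191183583, minus strand) promoters mark a match to the CARE element TGATGNAA, read here on the opposite strand, which C/EBP and ATF4 dimers bind. Capitals in the promoters of Hspa5 (chr2:34771840-34772089, plus strand) and Creld2 (chr15:88819396-88819645, plus strand) mark the ER stress element (ERSE), CCAAT and CCACG with 9 bases of any kind between them, which in Creld2 lies on the opposite strand.
Chac1: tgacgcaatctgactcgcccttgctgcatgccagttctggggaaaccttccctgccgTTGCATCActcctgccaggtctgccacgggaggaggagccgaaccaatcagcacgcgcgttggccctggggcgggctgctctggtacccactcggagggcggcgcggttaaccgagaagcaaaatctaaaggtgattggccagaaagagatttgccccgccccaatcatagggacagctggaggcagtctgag
Atf3: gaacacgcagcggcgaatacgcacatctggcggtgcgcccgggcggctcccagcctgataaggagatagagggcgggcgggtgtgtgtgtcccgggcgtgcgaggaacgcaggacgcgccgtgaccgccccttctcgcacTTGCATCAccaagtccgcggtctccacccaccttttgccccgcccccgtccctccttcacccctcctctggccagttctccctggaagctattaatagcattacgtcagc
Hspa5: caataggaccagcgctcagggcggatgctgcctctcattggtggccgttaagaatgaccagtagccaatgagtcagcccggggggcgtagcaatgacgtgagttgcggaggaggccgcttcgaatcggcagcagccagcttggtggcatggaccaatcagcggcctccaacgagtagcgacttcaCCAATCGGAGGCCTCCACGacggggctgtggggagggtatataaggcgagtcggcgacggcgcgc
Creld2: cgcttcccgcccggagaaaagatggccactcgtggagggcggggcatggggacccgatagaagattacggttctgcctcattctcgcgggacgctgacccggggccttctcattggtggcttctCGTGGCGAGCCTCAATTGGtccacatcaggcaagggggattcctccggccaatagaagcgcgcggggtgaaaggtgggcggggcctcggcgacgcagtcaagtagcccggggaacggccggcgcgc

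The sequencing depth did not separate the groups, since the reads recovered from the FPKM numbered 17496695 to 22628246 per MLN0128 library and 17168291 to 25186000 per everolimus library. Replicates of a group correlated across genes, which are not independent replicates, with r from 0.958 to 0.976 (MLN0128), 0.971 to 0.985 (everolimus) and 0.978 to 0.990 (vehicle). The MLN0128 range lay below that of vehicle-treated tumors, and the everolimus range overlapped it. MLN0128 replicates 1 and 2 stood apart by Xist RNA at 191 and 155 FPKM and by Ddx3y, Kdm5d, Uty and Eif2s3y, which lie on the Y chromosome, at 0, so the MLN0128 group also differed from the other groups in X and Y content. For that reason genes of the X and Y chromosomes and of mitochondria were tested and not counted, and the main counts are given also without those 2 libraries. The FPKM cover whole genes and not the floxed exons, so they are no check of the knockouts. Rictor was at 2.21, 1.65 and 1.82 FPKM with MLN0128 and 1.58, 1.93 and 1.62 with everolimus, and Tsc2 at 3.96, 2.81 and 3.40 and at 2.78, 2.82 and 2.87. Neither gene passed the test between the drugs. In whole tumor pieces, fewer cells of a type and less RNA per cell cannot be told apart, and this holds for all results that follow.

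Of the 13884 genes, 411 (2.96%) were lower and 317 (2.28%) were higher with MLN0128 than with everolimus. A call required a Benjamini-Hochberg adjusted p below 0.05 in the moderated test of limma and a fold change above 1.5 on the log2(FPKM + 1) scale, on which all log2 fold changes below are given, and which understates the change of genes at low FPKM. The 3 MLN0128 tumors lay below the 3 everolimus tumors without overlap in 2121 genes (15.3%) and above them in 1732 (12.5%), and 407 of the 411 and 313 of the 317 called genes were among these. The median log2 fold change of all genes was -0.03. The balance of the directions rested on the scaling between libraries that the authors' FPKM carry: with plain library totals, which moved the median of all genes by 0.10, 239 genes were lower and 659 higher, so the lower share went from 56.5% to 26.6%. Limma's treat test, which asks for a fold change beyond 1.5 with its error, called 5 genes lower (0.036%) and 1 higher (0.0072%). A fit of the 6 libraries alone also called 5 lower and 1 higher (0.036% and 0.0072%), of which 2 lower genes, Chac1 and Gm3226, and 0 higher genes were called by treat as well. Without everolimus replicate 3 the counts were 88 and 79, without MLN0128 replicate 1 they were 98 and 91, and without MLN0128 replicates 1 and 2 they were 90 and 71.

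**Figure D1:**
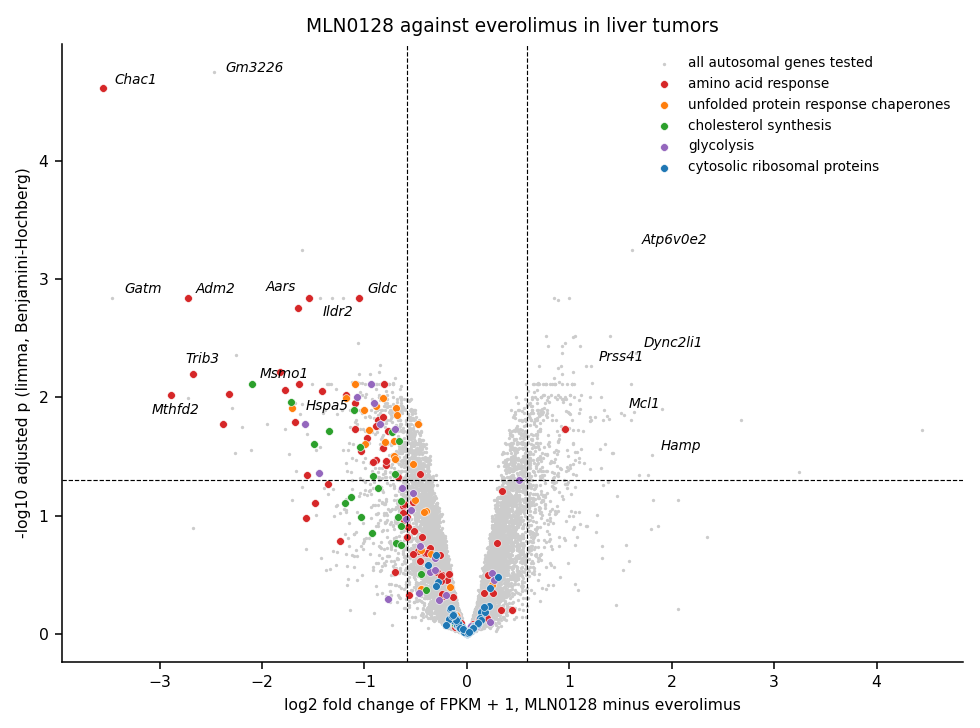
Each point is 1 of the 13884 autosomal genes, with the log2 fold change of MLN0128 against everolimus on the horizontal axis and -log10 of limma's adjusted p on the vertical axis. Dashed lines mark a fold change of 1.5 and an adjusted p of 0.05, and "amino acid response" joins the lists of the ATF4 program, serine and one-carbon enzymes, amino acid transporters and cytosolic tRNA synthetases. Most points of that group, the ER chaperones, cholesterol synthesis and glycolysis lie left of 0, the transporter Slc7a9 lies on the right past both lines, and ribosomal protein genes lie near 0 and below the dashed line.

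Against the shared vehicle tumors, more genes were called with MLN0128 than with everolimus. With MLN0128, 1542 genes were lower (11.1%) and 1131 higher (8.15%) than with vehicle, and with everolimus 646 were lower (4.65%) and 286 higher (2.06%). Among the 411 genes lower with MLN0128 than with everolimus, the median log2 fold change against vehicle was -0.82 with MLN0128 and -0.02 with everolimus. Of these genes, 255 were called against vehicle with MLN0128 alone, 24 with everolimus alone, 30 with both and 102 with neither. Everolimus itself was called above vehicle in 25 of the 411 and below it in 29. For the 317 genes higher with MLN0128 the medians against vehicle were 0.84 (MLN0128) and 0.04 (everolimus), and 219 were called with MLN0128 alone, 22 with everolimus alone, 16 with both and 60 with neither. Because both values are taken against the same 3 vehicle tumors, they were not independent of each other. The kind of gene also differed between the directions. Of the genes with an annotated type, 96.8% of the lower genes encode proteins, against 67.8% of the higher genes and 85.4% of all genes tested. Long noncoding and unclassified transcripts made up 25.9% of the higher genes, 1.22% of the lower genes and 8.91% of all genes tested. The lower genes were also more abundant, with a median of 16.2 FPKM in vehicle tumors against 1.48 for the higher genes and 4.38 for all.

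The ATF4 program had the lowest median of the pathway lists. Of 26 factors, regulators and hormones on this list, 14 were lower with MLN0128 than with everolimus and none was higher, beside 2.96% and 2.28% of all genes tested. The list's median log2 fold change was -0.89, beside -0.03 for all genes. Atf4, the factor itself, was at 33.8, 35.6 and 30.0 FPKM in the 3 MLN0128 tumors, at 96.9, 86.3 and 141 in the 3 everolimus tumors and at 148, 168 and 130 with vehicle. Every MLN0128 tumor was thus far below every tumor of the other groups, and the log2 fold change between the drugs was -1.65 (SE 0.19, limma adjusted p = 0.0018). Chac1, which breaks down glutathione, was at 0.71, 0.287 and 0.46 FPKM with MLN0128 and at 14.7, 12.4 and 23.6 with everolimus. Vehicle tumors held 32.5, 20.8 and 27.9, so 1 everolimus tumor was inside the vehicle range, the other two were below it, and the MLN0128 tumors were far below both groups. The log2 fold change of -3.55 (SE 0.22, limma adjusted p = 2.4e-05) was the largest fall of any autosomal gene between the drugs, and Chac1 was also called by treat.

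Trib3, a pseudokinase that restrains ATF4 and AKT, was at 2.30, 2.32 and 2.5 FPKM with MLN0128 and 15.1, 17.7 and 31.8 with everolimus, a log2 fold change of -2.67 (SE 0.38). Adm2, a peptide hormone of the calcitonin family, was at 0.271, 0.217 and 1.03 FPKM against 6.65, 6.03 and 15.8 (log2 fold change -2.72, SE 0.30). The factor Atf5 was at 30.5, 45.7 and 26.3 FPKM against 182, 151 and 181, and its vehicle tumors, at 164, 164 and 145, were level with the everolimus group. For these 3 genes the drug groups did not overlap. None was called between everolimus and vehicle, where the log2 fold changes were -0.91 (Trib3), -0.72 (Adm2) and 0.12 (Atf5). Fgf21, the hormone that hepatocytes secrete on amino acid shortage, was at 0.889, 0.345 and 0.484 FPKM with MLN0128 and at 3.06, 10.1 and 10.7 with everolimus (log2 fold change -2.38, SE 0.49), the lowest everolimus tumor being well below the other two. Cth, which makes cysteine from cystathionine, fell from 160, 108 and 149 to 31.1, 65.4 and 29.8 FPKM. Atf3 (log2 fold change -1.56), Ddit3 (-0.82), Pck2 (-1.68), Cebpg (-0.87), Vldlr (-0.89), Vegfa (-0.98) and Eif4ebp1 (-0.89) made up the 14. Ddit3, the stress factor CHOP, was at 13.3, 14.3 and 13.1 FPKM in vehicle tumors. It was at 4.79, 4.67 and 8.39 with everolimus and 3.14, 2.52 and 2.86 with MLN0128, without overlap. The median log2 fold change of the list against vehicle was -0.55 with everolimus and -1.42 with MLN0128. For all genes these medians were 0.03 and -0.01. Against vehicle, 21 of the 26 were called lower with MLN0128 and 3 with everolimus, beside 11.1% and 4.65% of all genes tested. Without MLN0128 replicate 1 or without everolimus replicate 3 the count of lower members was 6, and without MLN0128 replicates 1 and 2 it was 5.

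**Figure D2:**
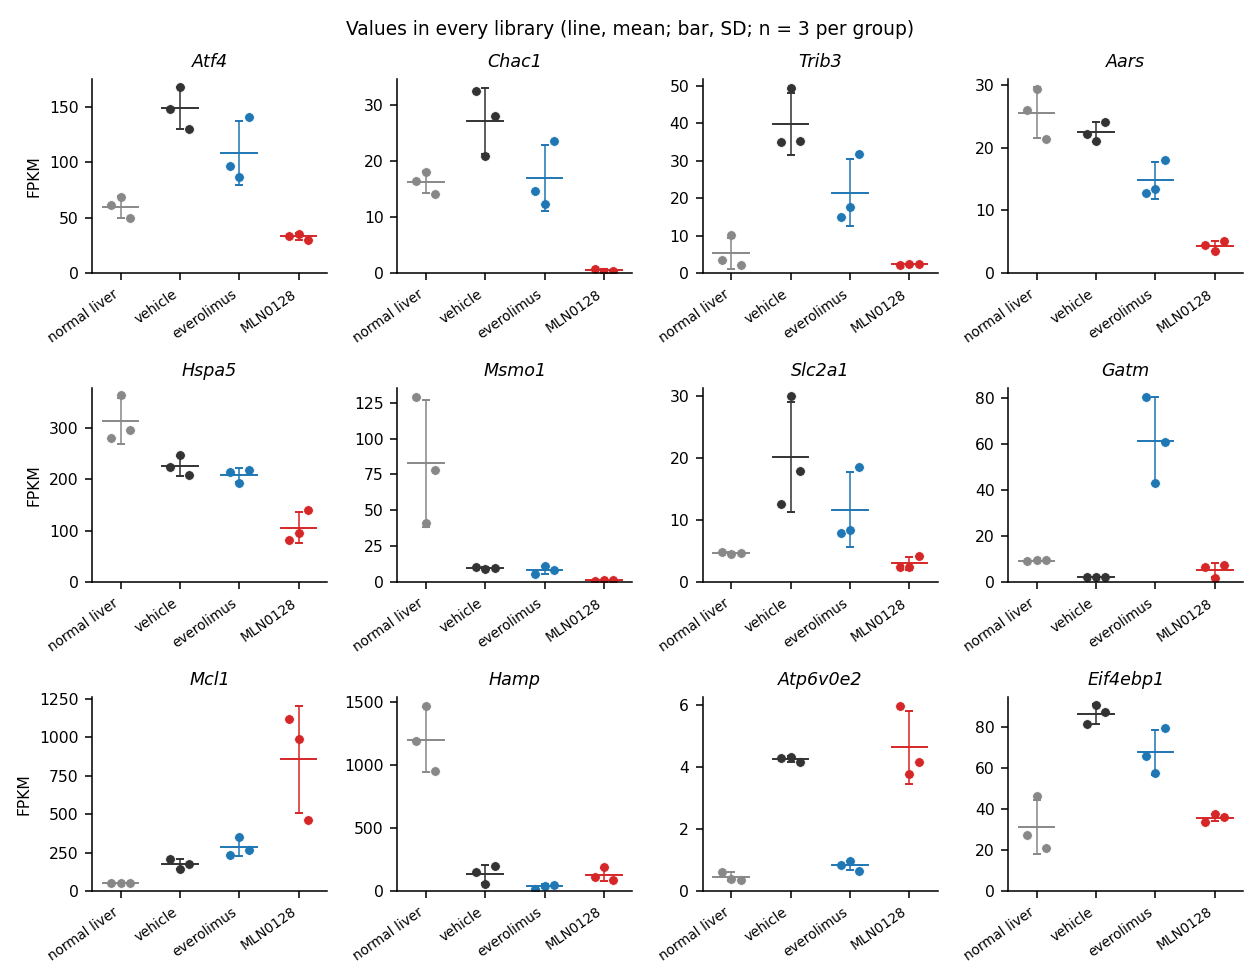
FPKM of 12 genes in every library by group, with a point for each mouse, a line at the mean and a bar of 1 SD (n = 3), on linear axes that start at 0. Atf4, Chac1, Trib3, Aars, Hspa5, Msmo1, Slc2a1 and Eif4ebp1 are lowest among the tumors with MLN0128, Gatm is high with everolimus alone, Mcl1 is highest with MLN0128, and Atp6v0e2 and Hamp are lowest among the tumors with everolimus.

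The CARE element was present in the 300 bases around the start site (250 upstream, 50 downstream) of 10 of the 24 genes on the ATF4 list that had a RefSeq window, or 41.7%, and of 5 of 13 cytosolic tRNA synthetase genes, or 38.5%. It was found, on either strand, in 2.88% of the windows of 9881 tested genes, in 3.97% of all windows in the collection, in 20 of 319 windows (6.27%) of genes lower with MLN0128 and in 4 of 208 (1.92%) of genes higher with it. Members of the ATF4 list with a match included Chac1, Atf3, Trib3, Fgf21, Vldlr and Pck2, all lower, and Asns, Nupr1, Herpud1 and Jdp2, which were not called. In Chac1 the match began 193 bases before the start site and in Atf3 110 bases before it, the places marked in the sequences above. CARE was found in 0 of 15 serine and one-carbon enzymes and in 3 of 23 amino acid transporters (13%). It was found in 3 of 17 enzymes of proline, asparagine and branched-chain amino acids (17.6%). A sterol element, TCACNCCAC, was found in 1 of 17 cholesterol synthesis genes (5.88%), beside 1.52% of tested genes. A hypoxia element, ACGTGC, was found in 11 of 19 hypoxia genes (57.9%), beside 9.58%. The match of letters is a description of these windows and no measure of binding.

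**Figure D3:**
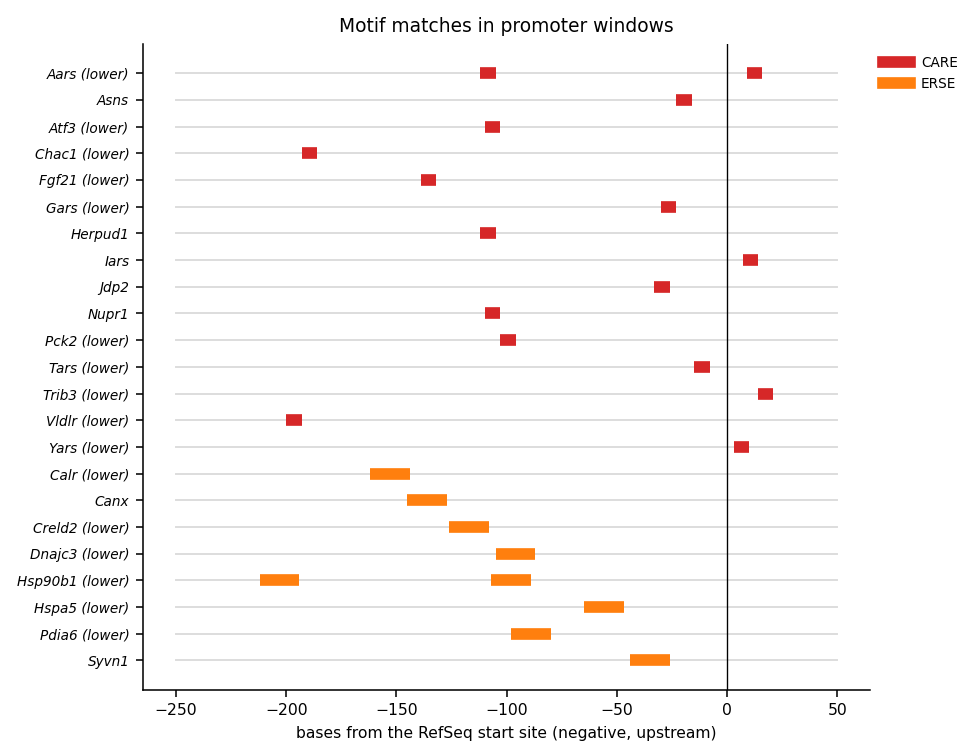
Position of each CARE match in promoters of the ATF4 list and the cytosolic tRNA synthetases, and of each ERSE match in promoters of the ER chaperones, in bases from the RefSeq start site, with gray lines for the 300 bases searched. Genes marked "(lower)" were called lower with MLN0128 than with everolimus, and most matches lie within the 200 bases upstream of the start site.

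Some of the enzymes that feed carbon through serine and folate were lower with MLN0128. Of 17 serine and one-carbon enzymes, 5 were lower (29.4%, beside 2.96% of all genes), none was higher and 12 were not called. The median log2 fold change was -0.57 beside -0.03 for all genes. Mthfd2, the folate enzyme of mitochondria that many tumors express and normal liver nearly lacks, was at 3.95, 2.81 and 9.10 FPKM with MLN0128 and 41.3, 28.4 and 60.6 with everolimus. Vehicle tumors held 51.8, 60.2 and 48.4, and the log2 fold change between the drugs was -2.88 (SE 0.49, limma adjusted p = 0.0095). Psph, the last enzyme of serine synthesis, was at 6.24, 8.12 and 7.75 FPKM against 29.9, 19.7 and 39.3, again without overlap. Shmt2 (log2 fold change -1.09), which splits serine in mitochondria, and Gldc (-1.05) and Gcsh (-0.81) of the glycine cleavage system were the other members called. Psat1, the middle enzyme of serine synthesis, was at 61.9, 54.5 and 89.8 FPKM with MLN0128 and 208, 157 and 249 with everolimus, groups that did not overlap. It was not called (log2 fold change -1.57, SE 0.57, limma adjusted p = 0.10), and in a fit of the 9 tumors, without the normal livers, its adjusted p was 0.016 with an SE of 0.22. Asns, the asparagine synthetase, behaved the same way (log2 fold change -0.70, adjusted p = 0.30 with all 12 libraries and 0.033 with the 9 tumors). Phgdh, the entry enzyme of serine synthesis, had 147, 174 and 156 FPKM against 284, 173 and 266, overlapped between the drugs and was called in neither fit. Proline synthesis was represented by Aldh18a1 (log2 fold change -1.35) and Pycr1 (-1.21). They were the 2 called of 25 enzymes of proline, asparagine and branched-chain amino acids, or 8% beside 2.96% of all genes. Pycr1 was at 7.05, 6.30 and 7.15 FPKM with everolimus, above the vehicle tumors at 3.25, 4.58 and 3.17, and at 2.45, 2.69 and 2.04 with MLN0128.

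Aminoacyl-tRNA synthetases load tRNAs with amino acids. Of 20 cytosolic synthetases, 7 were lower with MLN0128 (35%, beside 2.96% of all genes) and none higher. Their median log2 fold change was -0.45. None of the 17 mitochondrial synthetases was called in either direction (median -0.04), and the difference between the lists was not tested. Aars, the alanine enzyme, was at 4.56, 3.54 and 5.08 FPKM with MLN0128, 12.8, 13.4 and 18.1 with everolimus and 22.2, 21 and 24.1 with vehicle. The 3 groups of Aars values did not overlap, the fold between the drugs was called (log2 fold change -1.54, SE 0.16, limma adjusted p = 0.0015), and that of everolimus against vehicle was called as well (-0.59). Nars (log2 fold change -1.18), Yars (-1.09), Cars (-1.03), Gars (-0.92), Tars (-0.77) and Lars (-0.67) were the others, and everolimus was not called against vehicle for any of them. Among 25 amino acid transporters, 5 were lower (20%) and 1 was higher (4%), beside 2.96% and 2.28% of all genes. Against vehicle, 10 transporters were lower with MLN0128 and 6 with everolimus, beside 11.1% and 4.65% of all genes. Transporters above vehicle numbered 0 and 1. Slc1a4, which carries alanine and serine, was at 4.03, 2.59 and 3.58 FPKM against 12, 10.2 and 16.1 (log2 fold change -1.64), followed by the glycine carrier Slc6a9 (-1.41), Slc38a2 (-0.82), and both chains of the leucine exchanger, Slc3a2 (-0.79) and Slc7a5 (-0.79). Slc7a9, a carrier of cystine, was the higher one at 4.74, 2.66 and 4.12 FPKM with MLN0128 against 1.58, 2.16 and 0.795 with everolimus, and vehicle tumors at 4.24, 3.69 and 3.45 were level with MLN0128. The count of lower synthetases ran from 2 without everolimus replicate 3 to 7, and that of lower transporters from 2 without MLN0128 replicate 1 or everolimus replicate 3 to 5.

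Several chaperones and folding enzymes of the ER were also lower with MLN0128. Of 26 genes of the unfolded protein response, 14 were lower (53.8%, beside 2.96% of all genes) and none higher. Their median log2 fold change was -0.69. Hspa5, the chaperone BiP, was at 81.8, 95.7 and 141 FPKM with MLN0128, at 214, 193 and 218 with everolimus and at 224, 247 and 209 with vehicle. All 3 MLN0128 tumors lay below the other 6, with replicate 3 nearest to them, and the log2 fold change was -1.0 (SE 0.19, limma adjusted p = 0.013). Sdf2l1, which works with BiP, was at 7.50, 12.1 and 20.7 FPKM against 44.6, 42.2 and 41.5 (log2 fold change -1.70). Hyou1 (-1.18), Dnajc3 (-1.09), Creld2 (-0.99), Manf (-0.95), Hsp90b1 (-0.88), Dnajb11 (-0.82), Calr (-0.80) and Pdia4 (-0.71), all chaperones, co-chaperones, lectins or disulfide isomerases of the ER or proteins secreted on ER stress, were among the rest. For Hspa5, Sdf2l1, Hyou1, Dnajc3, Creld2 and Manf, MLN0128 replicate 3 was the highest of its group, and everolimus was not called against vehicle. The count of lower members was 1 without MLN0128 replicate 1, 1 without everolimus replicate 3 and 0 without MLN0128 replicates 1 and 2. The ERSE was found in the windows of 8 of 23 of these genes (34.8%), against 17 of 9881 tested genes (0.172%), 39 of all 32851 windows (0.119%), 6 of 319 genes lower with MLN0128 (1.88%) and none of 208 higher genes. The 6 lower genes with a match were Hspa5, Creld2, Dnajc3, Hsp90b1, Calr and Pdia6, all of this list, so their share is no separate observation. Canx and Syvn1 held a match and were not called. As with CARE, a match is a description and no measure of binding.

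Of 23 genes of cholesterol synthesis and uptake, known targets of SREBP2, 10 were lower with MLN0128 (43.5%, beside 2.96% of all genes). None was higher. The median log2 fold change was -0.87 between the drugs, -0.59 for MLN0128 and 0.14 for everolimus against vehicle. Msmo1, a sterol oxidase late in the pathway, was at 0.923, 1.32 and 1.29 FPKM with MLN0128, 5.63, 11.5 and 8.66 with everolimus and 10.4, 8.98 and 9.61 with vehicle (log2 fold change between the drugs -2.10, SE 0.33, limma adjusted p = 0.0077). Sqle (log2 fold change -1.72), Cyp51 (-1.49), Hsd17b7 (-0.91), Stard4 (-0.73), Tm7sf2 (-0.70) and the factor Srebf2 itself (-0.66) were also among the 10. Srebf2 was at 12.1, 11.5 and 13.5 FPKM with MLN0128 against 17.1, 20.2 and 23.6 with everolimus. Of 20 genes of fatty acid synthesis, Scd2 (log2 fold change -1.27), Elovl6 (-0.71) and the citrate carrier Slc25a1 (-0.66) were lower (15%, beside 2.96%). Among 28 genes of fatty acid oxidation, Cpt1a, which admits fatty acids to mitochondria, was the 1 called (3.57%, beside 2.28% of all genes higher). It was higher, at 90.8, 99.4 and 56.6 FPKM with MLN0128 against 27.0, 55.9 and 36.1 with everolimus (log2 fold change 1.06). The lowest MLN0128 tumor and the highest everolimus tumor of Cpt1a were almost level. The cholesterol count was 1 without everolimus replicate 3, 2 without MLN0128 replicate 1 and 1 without MLN0128 replicates 1 and 2.

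Some glycolysis and hypoxia genes were lower with MLN0128 as well. Of 29 glycolysis genes, 7 were lower (24.1%, beside 2.96% of all genes), none was higher and 22 were not called (median log2 fold change -0.36). Of 20 hypoxia and HIF1 targets, 8 were lower (40%) and none higher (median -0.58). The glucose carrier Slc2a1, on both lists, was at 2.47, 2.37 and 4.21 FPKM with MLN0128, 7.96, 8.33 and 18.6 with everolimus and 12.6, 29.9 and 17.9 with vehicle (log2 fold change between the drugs -1.58, SE 0.33, limma adjusted p = 0.017). Ldha, which makes lactate, was at 401, 352 and 366 FPKM against 715, 602 and 696, and the vehicle tumors at 590, 739 and 558 were level with the everolimus group. The lactate exporter Slc16a3 (log2 fold change -1.44), Pfkp (-1.08), Tpi1 (-0.94), Pgam1 (-0.91) and Aldoc (-0.70) were the other glycolysis genes called. Hypoxia genes called were Higd1a (-1.09), the oxygen sensors Egln1 (-1.05) and Egln3 (-0.95), the ER oxidase Ero1l (-1.04), the mitophagy receptor Bnip3 (-1.02), the vessel growth factor Vegfa (-0.98) and the collagen hydroxylase P4ha2 (-0.73). Hif1a RNA itself had 15.0, 13.3 and 11.1 FPKM with MLN0128 and 11.5, 9.84 and 13.3 with everolimus, which overlapped (log2 fold change 0.17, SE 0.13). None of 24 citrate cycle genes and none of 29 genes of the pentose phosphate pathway and nucleotide synthesis was called. Nme1 of the latter list had an adjusted p of 0.033 by limma but a log2 fold change of -0.56, under the fold threshold. The glycolysis count was 2 without MLN0128 replicate 1 or everolimus replicate 3, the hypoxia count was 2 and 1, and without MLN0128 replicates 1 and 2 they were 0 and 1.

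**Figure D4:**
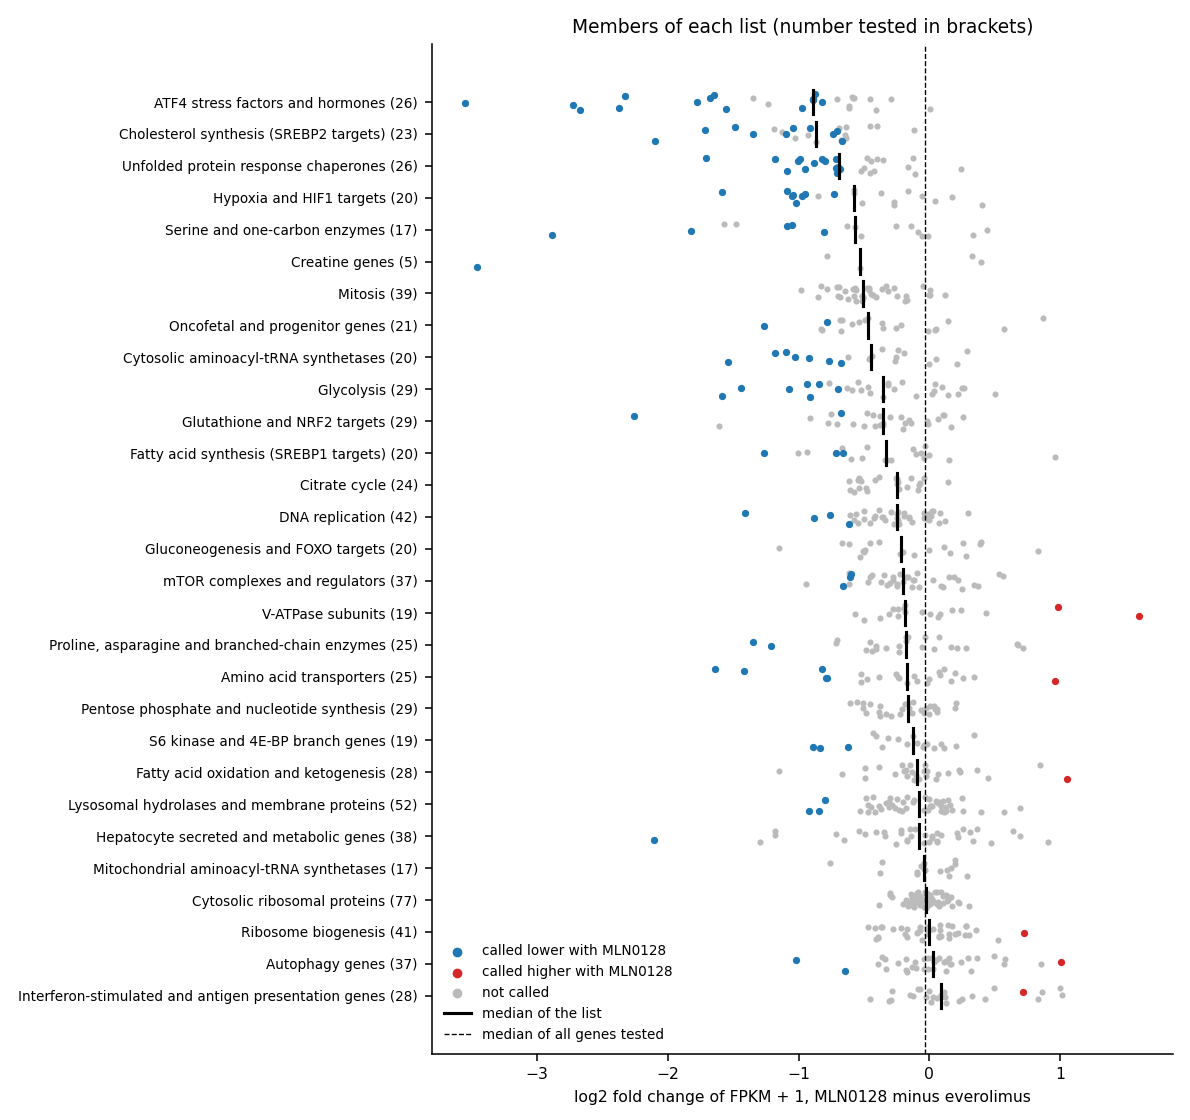
Log2 fold change of MLN0128 against everolimus for every tested member of each pathway list, with blue points called lower, red points called higher and gray points not called. A black bar marks the median of the list and the dashed line the median of all genes, -0.03, and medians run from -0.89 for the ATF4 list to 0.09 for interferon-stimulated genes.

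The genes of the mTOR pathway showed small differences. Of 37 components and regulators of the complexes, 3 were lower (8.11%, beside 2.96% of all genes) and none higher. Against vehicle, 12 of the 37 were lower and 1 was higher with MLN0128, beside 11.1% and 8.15% of all genes. With everolimus, 2 were lower and 1 was higher, beside 4.65% and 2.06% of all genes. The 3 genes lower between the drugs are given next. They were the Rag GTPase Rragd, at 14.5, 14.6 and 14.9 FPKM with MLN0128 against 25.9, 20.6 and 24.9 with everolimus (log2 fold change -0.66), the arginine sensor homolog Castor2 (-0.61) and the lysosomal anchor subunit Lamtor1 (-0.60). Mtor RNA (log2 fold change -0.12, 95% CI -0.37 to 0.14) and Rptor RNA (-0.34) were not called. Of 19 genes of the p70S6K/RPS6 and 4EBP1/eIF4E branches, 3 of the 4EBP1/eIF4E side were lower (15.8%, beside 2.96% of all genes). Eif4ebp1, which encodes 4EBP1, was at 33.8, 37.3 and 36.0 FPKM with MLN0128, 65.6, 57.4 and 79.2 with everolimus and 81.1, 90.4 and 87.0 with vehicle (log2 fold change between the drugs -0.89, SE 0.23, limma adjusted p = 0.034). Eif4e, the cap-binding factor, was at 15.9, 15.0 and 16.5 FPKM against 22.9, 21.4 and 31.2 (log2 fold change -0.62), and Eif4ebp3 was the other member (-0.83). The 3 MLN0128 values lay below all everolimus values for these genes. Eif4ebp2 (log2 fold change -0.32) and Rps6kb1 (-0.05), which encodes p70S6K, were not called. None of 77 cytosolic ribosomal protein genes, whose mRNAs mTORC1 controls at the level of translation, was called between the drugs, and their log2 fold changes ran from -0.38 to 0.30. Of 41 ribosome biogenesis genes, 1 was higher, Taf1b of RNA polymerase I initiation (0.72), a share of 2.44% beside 2.28% of all genes.

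Lysosome genes were called more against vehicle than between the drugs. Of 52 lysosomal hydrolases and membrane proteins, 27 were lower than vehicle with MLN0128, beside 11.1% of all genes tested, and 19 with everolimus, beside 4.65%. In the direct comparison of the drugs 3 of the 52 were lower, beside 2.96% of all genes, which is a share near the background. The protease Ctsl was at 346, 358 and 377 FPKM with vehicle, 130, 132 and 165 with everolimus and 69.6, 86.2 and 89.1 with MLN0128, in 3 steps without overlap (log2 fold change between the drugs -0.79, SE 0.15). The sialidase Neu1 (-0.84) and the phosphatase Acp5 (-0.92) showed the same order. Between the drugs, 2 of 19 V-ATPase subunits were called, both toward higher values in MLN0128 tumors (10.5%, beside 2.28% of all genes). The median log2 fold change of these subunits was -0.18, and 11 of the 19 were below 0. Against vehicle their medians were -0.72 (MLN0128) and -0.56 (everolimus). Calls below vehicle numbered 12 for MLN0128 and 7 for everolimus, beside 11.1% and 4.65% of all genes. Calls above it numbered 1 and 0, beside 8.15% and 2.06%. Atp6v0e2 was at 5.97, 3.78 and 4.14 FPKM with MLN0128, 0.845, 0.971 and 0.657 with everolimus and 4.29, 4.30 and 4.15 with vehicle, so that the everolimus tumors were the ones that stood apart. Its log2 fold change between the drugs was 1.61 (SE 0.14, limma adjusted p = 0.00057), and it was the 1 gene called higher by treat. Atp6v0a4 followed the same pattern (0.99). Among 37 autophagy genes, Calcoco1 was higher (1.01), and Bnip3 and the conjugation factor Atg5 (-0.65) were lower. These were 2.70% higher and 5.41% lower, beside 2.28% and 2.96% of all genes, and the list's median was 0.03.

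DNA replication genes differed in 4 of 42 members, all lower with MLN0128, or 9.52% beside 2.96% of all genes. None of 39 mitosis genes was called. Ccne1, the cyclin of the G1/S transition, was at 6.92, 7.53 and 13.6 FPKM with MLN0128, 31.2, 18.8 and 27.8 with everolimus and 25.5, 31.0 and 27.9 with vehicle (log2 fold change between the drugs -1.41, SE 0.27, limma adjusted p = 0.013). Gins1 (-0.88), E2f2 (-0.76) and Cdc6 (-0.61) were the others. The median log2 fold change of the mitosis list was -0.50, beside -0.03 for all genes. Of its 39 members 36 were below 0, beside 7490 of the 13884 genes. The groups overlapped in all members but 1, while MLN0128 lay below everolimus without overlap in 15.3% of all genes. Ube2c, the ubiquitin-conjugating enzyme of anaphase, was at 16.2, 10.3 and 42.3 FPKM with MLN0128 and 45.5, 33.4 and 39.6 with everolimus, with MLN0128 replicate 3 inside the everolimus range.

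Some genes lower with MLN0128 than with everolimus were above vehicle in all 3 everolimus tumors. Gatm, the first enzyme of creatine synthesis, was at 80.5, 43.0 and 61.0 FPKM with everolimus, 6.73, 1.59 and 7.33 with MLN0128 and 2.35, 2.34 and 2.29 with vehicle. Everolimus tumors were above all other libraries of the series, normal livers at 8.96, 9.52 and 9.45 included. The log2 fold change was -3.46 (SE 0.36) for MLN0128 against everolimus and 4.19 (SE 0.36) for everolimus against vehicle, both called, and 0.73 for MLN0128 against vehicle, which was not. The predicted genes Gm3226, at 5.60, 5.91 and 7.03 FPKM with everolimus against 0.0525, 0.315 and 0.561 with MLN0128, and Gm14150, at 4.14, 2.49 and 3.20 against 0.234, 0.347 and 0.587, had the same calls against vehicle. Together with Chac1 and Adm2 these 3 were the 5 genes called lower by treat. Nr0b2, the bile acid-induced repressor SHP, was at 8.18, 17.3 and 11.6 FPKM with everolimus, 0.809, 3.36 and 1.77 with MLN0128 and 1.32, 5.03 and 1.63 with vehicle (log2 fold change between the drugs -2.20). Abcb11, the bile salt pump, was lower with MLN0128 (-2.11), at 7.41, 41.2 and 6.39 FPKM against 67.8, 44.0 and 66.7, with MLN0128 replicate 2 close to the lowest everolimus tumor, and neither drug was called against vehicle. Gsta4, which conjugates lipid peroxidation products to glutathione, was at 4.42, 13.3 and 6.37 FPKM against 50.3, 32.7 and 35.1 (-2.26), with vehicle between them at 20.9, 25.1 and 22.6, and against vehicle MLN0128 was called (-1.52) and everolimus was not (0.74). Ildr2, a membrane protein of the immunoglobulin family, was the 1 gene called in opposite directions against vehicle, lower with MLN0128 (log2 fold change -0.80) and higher with everolimus (0.63).

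**Figure D5:**
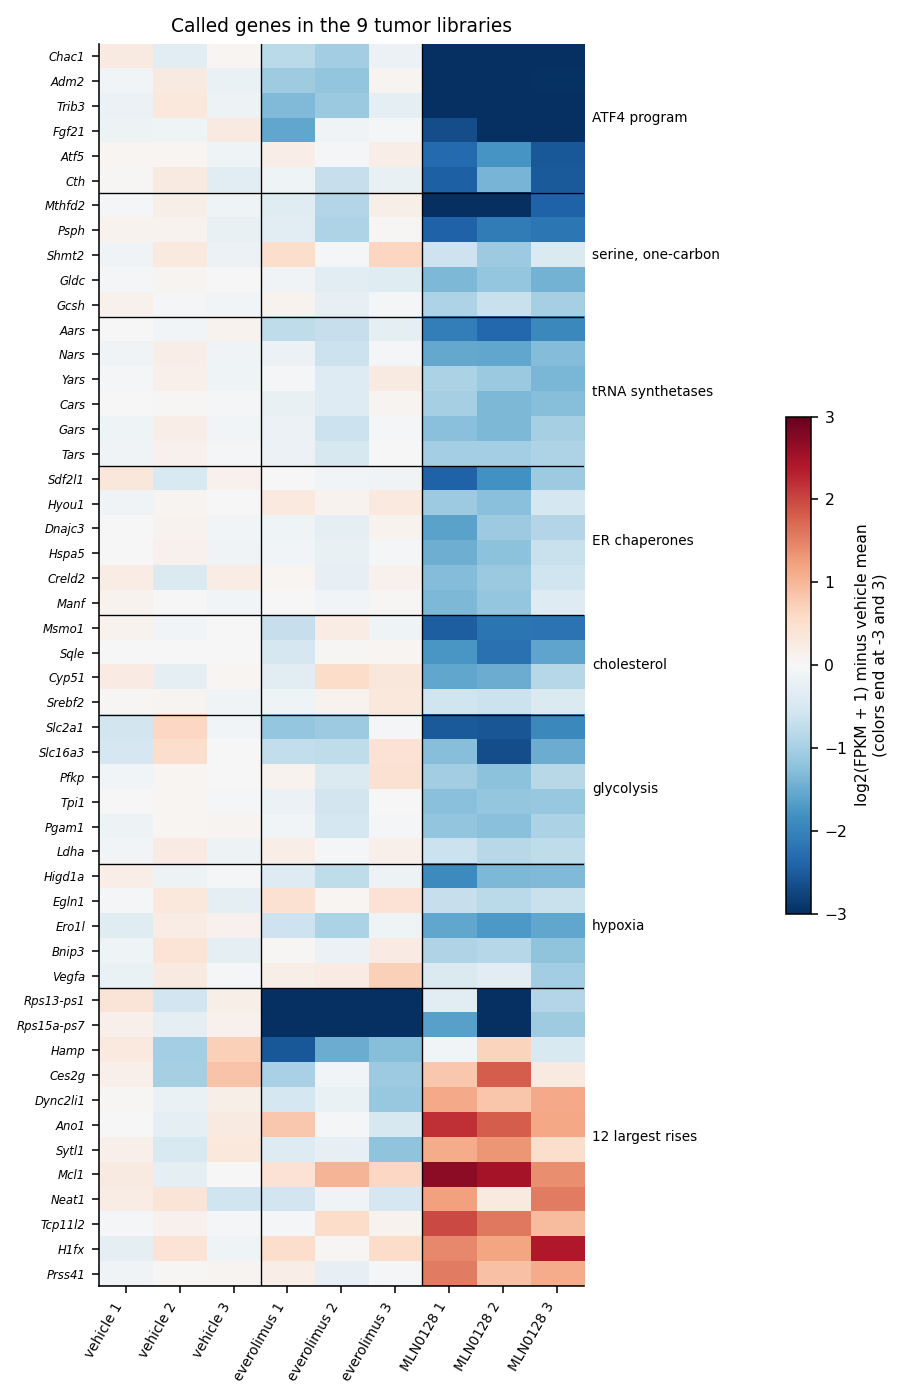
Log2(FPKM + 1) minus the mean of the 3 vehicle tumors in each of the 9 tumor libraries, for up to 6 called genes per list and the 12 largest rises by the naming rule, with blue below and red above vehicle and colors ending at -3 and 3. The MLN0128 columns are blue for the ATF4, synthetase, chaperone, cholesterol, glycolysis and hypoxia genes where the everolimus columns are pale, and the 2 pseudogenes Rps13-ps1 and Rps15a-ps7 are dark blue in the everolimus columns and in MLN0128 replicate 2.

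Among the genes higher with MLN0128, the anti-apoptotic gene Mcl1 had the highest FPKM. It was at 1120, 992 and 461 FPKM with MLN0128, 235, 354 and 270 with everolimus, 211, 143 and 176 with vehicle and 50.2, 53.9 and 53.2 in normal liver. MLN0128 tumors were above all others, with replicates 1 and 2 the highest (log2 fold change between the drugs 1.5, SE 0.29, limma adjusted p = 0.014). MCL1 is also 1 of the injected plasmids, and reads of the endogenous gene and of the plasmid cannot be told apart in these values. Myc, at 0.907, 1.38 and 1.15 FPKM with MLN0128 and 0.799, 3.01 and 0.990 with everolimus, overlapped between the drugs. The injected c-MYC plasmid was not measured apart, and whether these low Myc values include its reads was not tested. Hamp, the iron hormone hepcidin, was at 114, 191 and 88.3 FPKM with MLN0128, 20, 42.5 and 48.9 with everolimus and 148, 59.5 and 199 with vehicle, so everolimus tumors were the low ones (log2 fold change 1.81). Ces2g, a carboxylesterase, was at 11.3, 23.8 and 7.57 FPKM against 2.58, 5.65 and 2.30 (1.69). Dync2li1, a light intermediate chain of the ciliary dynein, was at 9.20, 7.26 and 9.25 FPKM against 2.24, 3.04 and 1.12 (1.65, SE 0.22), and vehicle tumors at 3.77, 3.08 and 4.25 were nearer to everolimus. The chloride channel Ano1 (1.64), the vesicle transport protein Sytl1 (1.6), the paraspeckle RNA Neat1 (1.42), Tcp11l2 (1.31), the linker histone H1fx (1.30) and the protease Prss41 (1.21) were called above both everolimus and vehicle. Neat1 was at 41.2, 20.9 and 51.6 FPKM with MLN0128 and 11.1, 15.8 and 11.6 with everolimus. Tap1, the peptide carrier of antigen presentation, was higher (0.72). It was the 1 called of 28 interferon-stimulated and antigen presentation genes, or 3.57% beside 2.28% of all genes.

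The largest log2 fold change upward was that of Gm42047, a predicted long noncoding RNA on chromosome 8 outside the naming rule, at 9.47, 86.1 and 83.0 FPKM with MLN0128 and 0, 0.0292 and 6.18 with everolimus (4.45, SE 0.95). Vehicle tumors spread from 8.12 to 56.5 FPKM, so the everolimus tumors were the low ones. A pair of processed pseudogenes came next. Rps13-ps1 was at 142, 4.97 and 96.3 FPKM with MLN0128, 4.82, 2.76 and 3.51 with everolimus and 233, 119 and 200 with vehicle, and Rps15a-ps7 at 30.4, 5.75 and 45.1, 3.92, 1.6 and 1.95, and 106, 79.1 and 105. The log2 fold changes were 3.24 (SE 0.88) and 2.67 (SE 0.54), and MLN0128 replicate 2 was near the everolimus tumors for both. Reads may be shared with the parent genes Rps13 and Rps15a, which were not called (log2 fold changes -0.29 and 0.01), so both pseudogene values are uncertain.

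Markers of other cells moved with the comparison in part. Of 5 erythroid markers tested, Hbb-bt (log2 fold change -2.72), Hba-a1 (-2.30) and Hbb-bs (-1.95) were lower with MLN0128 (60%, beside 2.96% of all genes). The summed FPKM of the list was 17.5, 28.7 and 41.5 with MLN0128, 108.0, 132.0 and 118.3 with everolimus and 36.0, 89.0 and 61.7 with vehicle. Of 11 macrophage and Kupffer cell markers tested, Marco (-2.26) and Cd5l (-1.56) were lower (18.2%, beside 2.96%). The list sums of 84.1 to 156.6 against 120.7 to 285.2 overlapped. None of the 7 hepatocyte markers tested was called, and their sum ran from 2036 to 4676 with MLN0128 and from 3696 to 8324 with everolimus. None of the tested markers of T and NK cells (3), B cells (2), neutrophils (4), endothelial cells (10), stellate cells and fibroblasts (12) or cholangiocytes (4) was called. The sums of genes biased to female livers were 88.8, 104.1 and 18.3 with MLN0128, 26.2, 55.6 and 22.2 with everolimus, 52.7, 21.5 and 74.5 with vehicle and 745 to 1051 in normal liver, and none of the 11 tested was called. Among the drug-treated tumors the sum was highest in the 2 libraries with Xist RNA, while Xist was at 0.0699 FPKM or less in every vehicle tumor and normal liver. Of genes biased to male livers, none of 13 was called. The part of blood, macrophages or sex in the results above was not tested beyond leaving out MLN0128 replicates 1 and 2.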

How the data were processed

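RNA of 12 mice in 4 groups of 3 was measured, as the labels give them, and MLN0128 replicates were compared with everolimus replicates. The authors deposited FPKM per gene symbol, rounded to 3 significant digits, made by Novogene's sequencing and counts per Ensembl gene. The libraries were made by polyA capture or rRNA removal. The submitters' processing notes name GRCm38 and FastQC 0.11.7, and the aligner is not given in the sources used here. The FPKM also carry the authors' scaling between libraries, with factors of 1.15 to 1.37 for MLN0128 and 1.10 to 1.20 for everolimus over plain totals. The factors were 1.12 to 1.15 for vehicle and 0.585 to 0.595 for normal liver. FPKM of normal livers thus stand higher beside those of tumors than on plain totals. The scaling was found by recovering reads from FPKM and GENCODE M21 exon lengths, which gave whole numbers within 0.1 for 98.2% to 98.8% of values under 20 reads. On 2 kb of exon, 3 reads were 0.0495 to 0.0794 FPKM in the drug-treated libraries, which covers counting error only.

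Of 17007 rows, 22 symbols turned into dates were left out, and 16873 symbols had 1 gene in GENCODE M21. Values were taken as log2(FPKM + 1). The 12 samples were fitted in 1 model with 4 group means by limma 3.58.1 in R 4.3.3, with an intensity trend, 8 residual degrees of freedom and two-sided tests adjusted over 14379 genes by Benjamini-Hochberg. Spread estimated with normal livers enters every SE. The members and lists were chosen with earlier results of these data known, so no list was tested as a set. Lists are given by counts and medians beside all genes. The text names the 12 largest called falls and rises without overlap and with a group mean of at least 5 FPKM, predicted genes left out, all genes called by treat, and up to 6 called genes of each list. Atf4, Atf3, Ddit3, Pck2, Asns, Phgdh, Psat1, Srebf2, Hif1a, Gm42047, further called members of a list and genes with a motif match were named after their values were seen. An exact permutation test of 3 against 3 cannot go below p = 0.1 and was not used.

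Alternatives covered the pseudocount, filter, scaling, fold threshold, libraries in the model, prior variance, replicate block and each library left out. Voom with TMM factors was run on the recovered reads. The fit was tested on simulated data. Promoter windows came from RefSeq tables of GRCm38.p6, matched by symbol for 9881 of the 13884 genes, and motifs were searched on both strands. Pandas 2.3.3 held the tables and matplotlib 3.10.9 drew the figures. Some withheld genes are not reported here by name.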

Additional observations from a re-analysis of the deposited data

Results flagged for a closer look

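Xist RNA, which lies outside the autosomal genes counted, was at 191 FPKM in MLN0128 replicate 1 and 155 FPKM in MLN0128 replicate 2. In the other 10 libraries it was between 0.00885 and 0.0699 FPKM. Ildr2 had a log2 fold change of -1.43 between MLN0128 and everolimus (limma adjusted p = 0.0015) and was called in opposite directions by the 2 drugs against vehicle. It was at 1.37, 2.31 and 2.24 FPKM with MLN0128, 7.69, 5.82 and 7.39 with everolimus and 4.60, 4.01 and 3.83 with vehicle, and the groups did not overlap.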

How the results depend on the processing

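Among 102 genes called between the drugs, those of the naming rule with Atf4, Atf3, Ddit3, Pck2 and Srebf2, none changed sign in any alternative. The number still called was 86 with plain library totals, 96 of 101 with voom on recovered reads, 87 in the 9 tumors, 35 without MLN0128 replicate 1 or without everolimus replicate 3, 25 without MLN0128 replicates 1 and 2, 6 with treat and 5 with the 6 libraries alone. Genes lower and higher numbered 411 and 317, against 239 and 659 with plain library totals, 503 and 635 with voom, 766 and 552 with no fold threshold, 5 and 1 with treat, 5 and 1 with the 6 libraries alone, and 90 and 71 without MLN0128 replicates 1 and 2. Leaving out 1 library gave 88 to 590 lower and 79 to 474 higher. The cause of these shifts was not tested, and fits with libraries left out also hold fewer samples.

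Against vehicle, MLN0128 gave 1542 lower and 1131 higher, and everolimus 646 and 286. Treat gave 225, 65, 76 and 4, plain totals gave 1846 higher with MLN0128, and leaving out 1 library gave 1247 to 1690, 853 to 1438, 342 to 769 and 109 to 385.

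Lower members by list ranged on leaving out 1 library from 6 to 14 (ATF4), 4 to 6 (serine and one-carbon), 2 to 7 (cytosolic synthetases), 2 to 5 (transporters), 1 to 15 (ER chaperones), 1 to 9 (cholesterol), 2 to 10 (glycolysis) and 1 to 9 (hypoxia). In the fit of 6 libraries alone, an alternative chosen after seeing the data for lists, 3 ATF4 members and 0 members of the other 7 lists were called. Without MLN0128 replicates 1 and 2 they were 5, 2, 1, 0, 0, 1, 0 and 1 in the order above. Plain totals gave 3 transporters and 8 chaperones.

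Replicate numbers did not pair the samples (correlation of deviations of MLN0128 and everolimus libraries of the same number 0.02, 0.00 and 0.15). With the replicate block, 307 genes were lower and 251 higher, and 84 of the 102 genes were called.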

Other observations

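Further lists held few genes called between the drugs. Of 20 gluconeogenesis and FOXO targets none was called, and Pdk4, which holds back pyruvate oxidation, was at 7.16, 3.13 and 2.99 FPKM with MLN0128 and 3.02, 17.6 and 18.6 with everolimus, overlapping, while vehicle tumors at 29.5, 56.2 and 39.4 were above both. Of 38 genes of hepatocyte secretion and metabolism, Abcb11 was the 1 called (2.63%, beside 2.96% of all genes lower). Of 21 oncofetal and progenitor genes, Igf2, the fetal growth factor, was lower with MLN0128 (log2 fold change -0.78), at 51.0, 67.9 and 33.1 FPKM against 89.0, 71.2 and 94.5, along with the desaturase Scd2. These were 9.52% of the list, beside 2.96% of all genes. Of 29 glutathione and NRF2 targets, Gsta4 and the glutathione reductase Gsr (-0.68) were lower, or 6.90% beside 2.96% of all genes. Against vehicle, 22 of the 29 were lower with MLN0128 and 14 with everolimus, beside 11.1% and 4.65% of all genes tested. Of 5 creatine genes, Gatm was the 1 called (20%, beside 2.96% of all genes lower).

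Noncoding RNAs higher with MLN0128 than with everolimus, named after their values were seen, included 3 annotated small nucleolar RNAs, which guide the modification of ribosomal RNA. Snord110 was at 11.4, 10.3 and 10.5 FPKM with MLN0128, 5.45, 6.80 and 4.13 with everolimus and 4.80, 10.5 and 4.42 with vehicle. Gm22362 was at 3.68, 3.85 and 3.74 FPKM with MLN0128, 1.19, 1.23 and 1.20 with everolimus and 3.13, 4.6 and 1.6 with vehicle. Snord73a was at 9.32, 12.4 and 5.53 FPKM with MLN0128, 3.11, 3.89 and 4.72 with everolimus and 6.86, 6.98 and 4.42 with vehicle. The drug groups did not overlap for these 3 RNAs, while MLN0128 and vehicle values overlapped for each. Their length limits what such libraries recover, so low values can rest on a few reads. Zfas1, a host of small nucleolar RNAs, was at 53.2, 80.5 and 41.7 FPKM with MLN0128 and 36.0, 21.9 and 27.9 with everolimus (log2 fold change 0.98). Zfp264, annotated as a pseudogene, was at 5.53, 4.74 and 0.812 FPKM with MLN0128, high in the replicates with Xist RNA, and between 0.0748 and 0.0992 with everolimus (log2 fold change 1.91). Malat1, a nuclear RNA, was not called (0.84, limma adjusted p = 0.052).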
